A study of Drosophila melanogaster with 36 samples.

Results

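The 9 genes described here encode proteins that fold secretory and membrane proteins in the endoplasmic reticulum (ER), and Xbp1, a transcription factor that acts on such genes. They were chosen by gene identifier from the 14010 genes of the deposited table, by a rule that names the genes and uses no measured value. Members of the protein disulphide isomerase family make and rearrange disulphide bonds in the ER lumen, and the lectin chaperones calreticulin and calnexin hold new glycoproteins until they are folded. When unfolded proteins build up, sensors in the ER membrane start the unfolded protein response. In 1 branch of it the sensor Ire1 splices the Xbp1 mRNA, and in another translation of the transcription factor ATF4, crc in the fly, goes up. In the fly head, photoreceptors fold large amounts of rhodopsin in the ER.

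RNA came from heads of wild-type Canton-S flies kept in cycles of light and dark for at least 3 days at 18, 25 or 29°C, and was sequenced from the 3′ ends of transcripts with a poly(A) tail (3′ RNA-seq). The sex and age of the flies are not given in the sources used here. Collections were made at 6 Zeitgeber times (ZT, counted in hours from the time the lights went on), of which ZT3, ZT7 and ZT11 lie in the light and ZT15, ZT19 and ZT23 in the dark. GEO's labels list 36 libraries, a pair for every combination of temperature and time, but the table has 18 columns, 1 for a pair. No replicate error can be had at a single time, so the 6 columns of a temperature were its units. The temperature fit had time point as a factor. Its p-values therefore rest on the spread left between columns after the daily course common to the temperatures. Differences in daily course between temperatures and differences between libraries are together in that spread. The same 12 barcodes recur at each temperature, but how the libraries were pooled is not given in the sources used here. If each temperature was pooled apart, a difference between pools could not be told apart from temperature. Values are the authors' scaled reads, called normalised reads below. A column held between 736538 and 2750250 reads over all genes. The medians of 18, 25 and 29°C were 1656548.5, 1673386.5 and 1793466. The columns of 29°C ZT19 and 25°C ZT7 stood apart. The first had a testis marker sum of 231.6 against at most 24.7 in any other column. Its accessory gland marker sum was 427.6, against a 29°C median of 210.4. The second had a midgut marker sum of 6871. The next highest midgut sum, 2377, was again that of 29°C ZT19, where the 29°C median was 560.4. Of the 15 testis genes, can was at 0 in every column. The head markers were as labelled, with the 14 photoreceptor genes summing to between 30746 and 52205.

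Of the 9 genes, 7 passed the filter on low counts and were tested. Values are not divided by transcript length, and levels are compared within a gene. Calr was the 1 gene of the 7 that differed between 18°C and 25°C, and was lower at 18°C. Xbp1 was the 1 gene that differed between 29°C and 25°C, and was higher at 29°C. The 18°C and 29°C columns differed in 3 genes, Calr, Gp93 and Xbp1, each lower at 18°C. The test was limma on log2(normalised reads + 1) with time point as a factor and Benjamini-Hochberg adjustment over all 8791 genes tested, at an adjusted p of 0.05. For 18°C against 25°C it called 13.4% of all genes (8.07% higher and 5.32% lower at 18°C), beside 1 of 7 members. For 29°C against 25°C it called 17.3% (10.6% higher and 6.69% lower at 29°C), again beside 1 of 7. For 18°C against 29°C it called 27.9% (13.3% higher and 14.7% lower at 18°C), beside 3 of 7. The comparisons with 25°C share the 25°C columns and are not independent of each other.

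**Figure D1:**
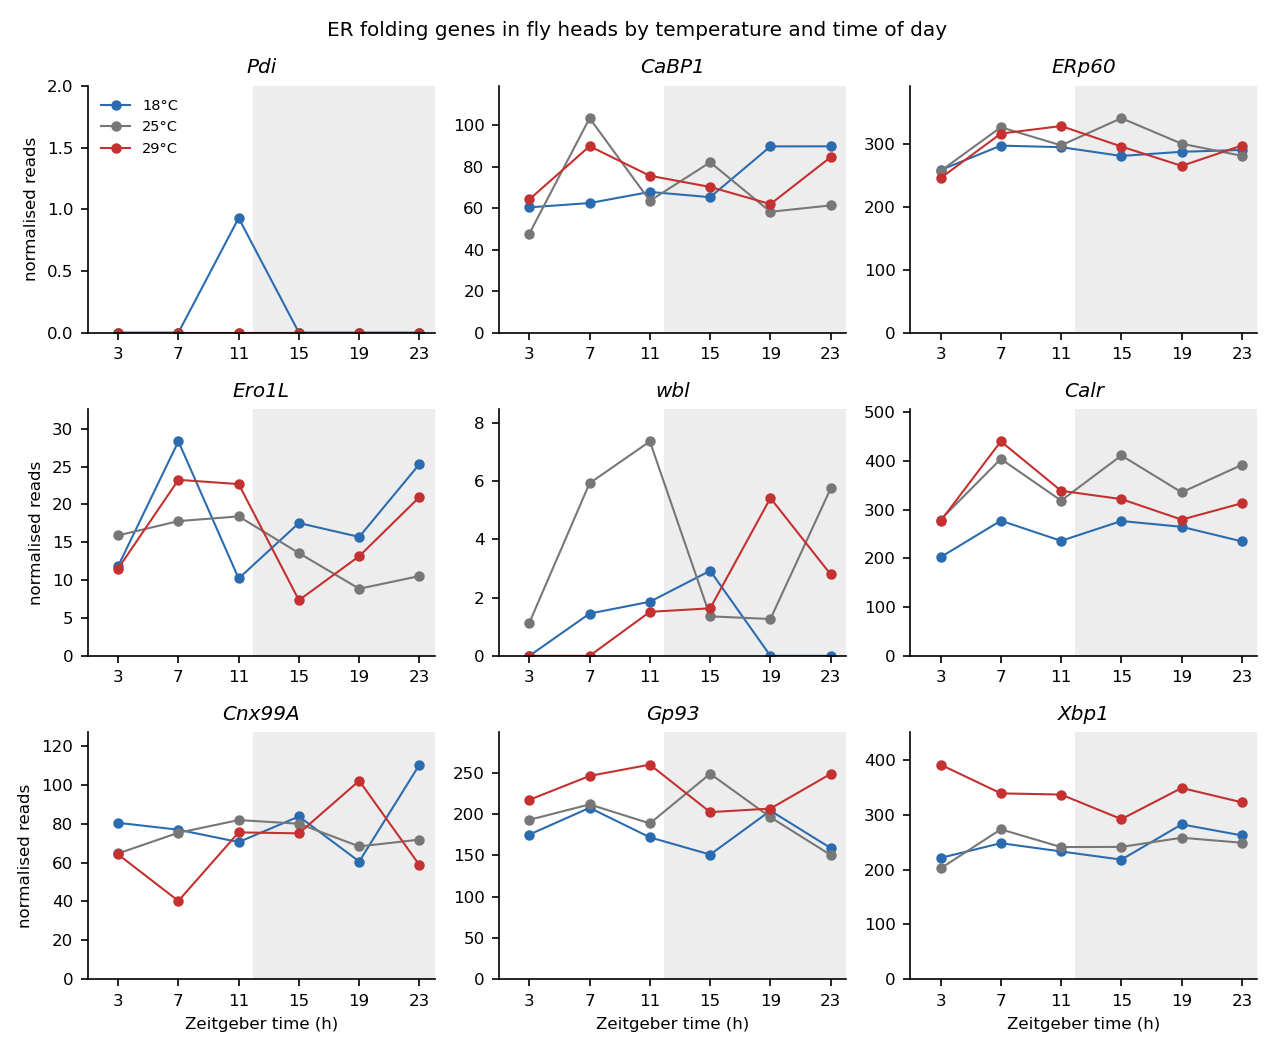
Normalised reads (y axis, from 0, a scale of its own for each gene) of the 9 ER folding genes by Zeitgeber time in hours (x axis) at 18°C (blue), 25°C (grey) and 29°C (red), with 1 point per column of the table and the dark phase shaded. The blue Calr points lie below the grey and red points of the same hour at all 6 times, and the red Xbp1 points lie above all others, while Pdi stays at 0 except for 1 read.

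Calr (CG9429, chromosome 3R, 5454657 to 5456607 in dm3) encodes calreticulin, the soluble lectin chaperone of the ER lumen, which also binds calcium. The table itself names this identifier with a symbol close to that of crc, an unrelated gene with the identifier CG8669, so it was taken by identifier. At 18°C its normalised reads had a lowest value of 202.5, a median of 250.5 and a highest value of 277.5. At 25°C they ran from 279.5 over a median of 363.8 to 411.3. At 29°C they ran from 276.7 over a median of 317.5 to 440.2. All 6 columns of 18°C lay below all 6 of 25°C, though the highest at 18°C (ZT7) and the lowest at 25°C (ZT3) were almost equal, and Calr was lower at 18°C at each of the 6 times against either temperature. The ranges of 18°C and 29°C overlapped, since the ZT7 and ZT15 columns of 18°C were just above the ZT3 column of 29°C. Calr was 1.43-fold lower at 18°C than at 25°C (95% interval 1.24 to 1.64, log2 change −0.51, SE 0.098, limma adjusted p = 0.0008), and 2.32% of all genes had 18°C values wholly below those of 25°C. It was 1.31-fold lower at 18°C than at 29°C (95% interval 1.14 to 1.51, limma adjusted p = 0.0039). Both calls held in all 31 alternative analyses run, with adjusted p-values of at most 0.0051 and 0.0171 in limma, edgeR or DESeq2. For 29°C against 25°C the log2 change was −0.12 (95% interval −0.33 to 0.08, limma adjusted p = 0.44). Of the 31 alternatives, library size scaling was the one in which this passed, at −0.31 (limma adjusted p = 0.0359).

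Xbp1 (CG9415, chromosome 2R, 17031050 to 17033255) encodes the transcription factor of the Ire1 branch. The 3′ reads count its spliced and unspliced mRNA together. Its normalised reads at 18°C had a lowest value of 218.3, a median of 240.8 and a highest value of 282.8. At 25°C they ran from 202.3 over a median of 245.4 to 273.7. At 29°C they ran from 292.4 over a median of 338.4 to 392.0. The 29°C columns were the high ones, and their lowest, at ZT15, was above every column of 18°C and 25°C. Xbp1 was 1.39-fold higher at 29°C than at 25°C (95% interval 1.2 to 1.6, log2 change 0.47, SE 0.10, limma adjusted p = 0.0016), and 5.14% of all genes had 29°C values wholly above those of 25°C. Library size scaling ended this call, with a log2 change of 0.28 (limma adjusted p = 0.0669). That scaling moved the median of all genes to −0.13, and relative to this median the Xbp1 change was 0.41, beside 0.43 relative to the median in the deposited scaling. It was 1.39-fold lower at 18°C than at 29°C (95% interval 1.2 to 1.6, limma adjusted p = 0.0009), without overlap, as 6.88% of all genes were, and this call held in all 31 alternatives. For 18°C against 25°C the log2 change was 0.00, with a 95% interval of −0.21 to 0.21. For Xbp1 the 29°C columns stood apart, whereas for Calr the 18°C columns were the low ones.

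Gp93 (CG5520, chromosome 3R, 23774380 to 23777882) encodes the Hsp90-type chaperone of the ER. Its normalised reads at 18°C had a lowest value of 151.1, a median of 173.6 and a highest value of 207.7. At 25°C they ran from 150.5 over a median of 194.7 to 249.1. At 29°C they ran from 202.5 over a median of 231.9 to 260.2. The temperatures overlapped, but Gp93 was lower at 18°C than at 29°C at each of the 6 times. It was 1.29-fold lower at 18°C than at 29°C (95% interval 1.09 to 1.54, limma adjusted p = 0.0226). This call was lost in 5 of 31 alternatives, which were library size scaling (limma adjusted p = 0.0551) and leaving out the column of 18°C ZT11, 18°C ZT15, 29°C ZT11 or 29°C ZT23 (limma adjusted p = 0.0558, 0.0771, 0.0702 and 0.0891). Against 25°C its log2 changes were −0.15 at 18°C (95% interval −0.40 to 0.10) and 0.22 at 29°C (95% interval −0.02 to 0.47), and neither passed. The table gives no strand to the counts, and the gene CG4951, with 628 reads in all, overlaps Gp93, so reads near the overlap are uncertain.

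**Figure D2:**
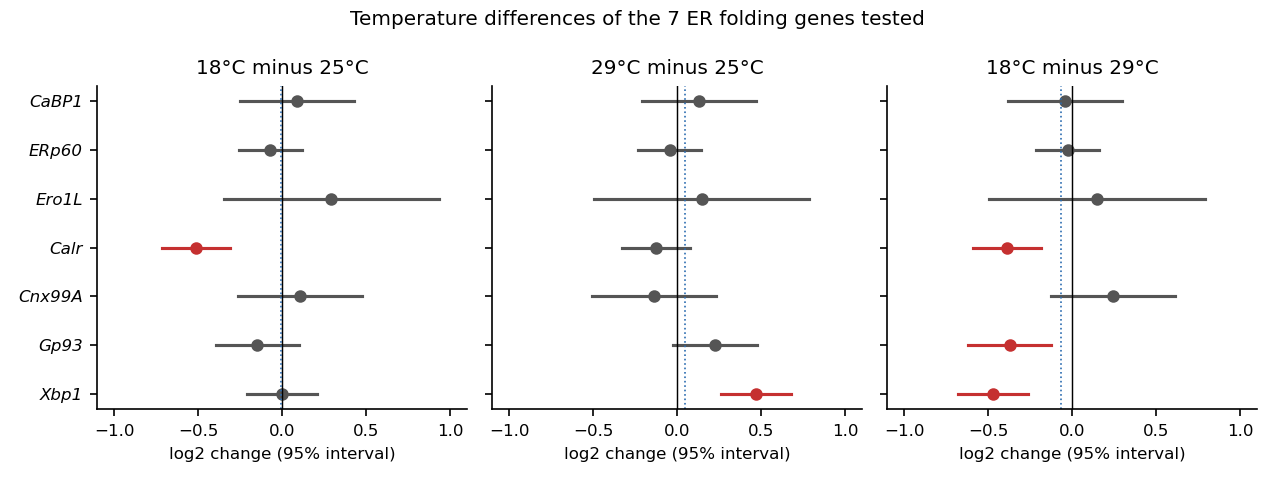
Log2 change in normalised reads + 1 (x axis) of the 7 ER folding genes tested, with bars for the 95% interval of the limma fit, for 18°C minus 25°C, 29°C minus 25°C and 18°C minus 29°C. Red marks genes past the adjusted threshold, and the dotted line is the median of all 8791 genes. Calr sits at −0.51 in the first panel, Xbp1 at 0.47 in the second, and the intervals of Ero1L are the widest.

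Among the members, the enzymes of disulphide formation that could be tested, ERp60, CaBP1 and Ero1L, showed no change that passed. ERp60 (CG8983, chromosome 2R, 7775068 to 7778520), the fly counterpart of the mammalian isomerase that works with calreticulin and calnexin, averaged 284.7 ± 14.2, 300.4 ± 30.3 and 291.3 ± 31.1 normalised reads over the 6 times of 18, 25 and 29°C (± SD, here and below). Its log2 changes of −0.07 at 18°C and −0.05 at 29°C against 25°C had 95% intervals of −0.26 to 0.12 and −0.23 to 0.14, the narrowest among the members. At 18°C its coefficient of variation over the day was 4.98%, below the 7.0% that counting reads alone would give. The gene cuff, with 320 reads, overlaps ERp60. CaBP1 (CG5809, chromosome 2L, 16354939 to 16356761), a further isomerase of this family with thioredoxin domains, had means of 72.6 ± 13.6, 69.4 ± 20.1 and 74.4 ± 11.1 at 18, 25 and 29°C. Ero1L (CG1333, chromosome 3L, 4170266 to 4173810), the oxidase that passes oxidising power on to these isomerases, had 18.2 ± 7.27, 14.2 ± 3.90 and 16.5 ± 6.68. It had 7 to 39 reads a column, and its 95% interval for 18°C against 25°C ran from −0.35 to 0.93 on the log2 scale, the widest among the members.

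Pdi (CG6988, chromosome 3L, 15130430 to 15135745), the classical disulphide isomerase, had 1 read over all 18 columns, at 18°C ZT11. Its 2 transcript rows carried the same values, no other gene of the table overlapped it, and a column of 0 reads allows up to 3 reads. No level of Pdi mRNA is read from this. The gene wbl (CG7225, chromosome 2R, 15137266 to 15138419), an isomerase relative needed in the Drosophila ovary for patterning of the embryo, had 46 reads. Of these, 7 came from the 18°C columns, 25 from 25°C and 14 from 29°C, with 13 of the 18 columns at 3 reads or fewer and the lowest and highest columns at 0 and 8 reads. Both genes were below the filter. In the fit without the filter neither was called, and wbl had a log2 change of −1.22 for 18°C against 25°C (SE 0.53, limma adjusted p = 0.20, unadjusted 0.033).

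Cnx99A (CG11958, chromosome 3R, 25140965 to 25145366) encodes calnexin, the membrane-bound lectin chaperone, which Drosophila photoreceptors need to mature rhodopsin. The row of Cnx99A with most reads had means of 80.5 ± 16.9, 73.8 ± 6.68 and 69.4 ± 20.7 at 18, 25 and 29°C. The means of this row ran in the opposite order to those of Gp93, but none of its temperature differences passed. The log2 change of this row for 18°C against 29°C was only 0.24, with a 95% interval of −0.13 to 0.61. The reads of Cnx99A fell on 2 transcript ends that lie 542 bases apart in the table. The BDGP6 annotation, another build than the table's, gives these transcripts 3′ untranslated regions of 50 and 581 bases, so the distance between the ends differs slightly between the annotations. The far end had 1316 reads in all and is the row whose values are given above, and the near end had 875. The near end held 40.8% ± 2.32, 36.0% ± 8.72 and 43.4% ± 7.52 of the reads at 18, 25 and 29°C. The lowest share was 23.3% at 25°C ZT11 (95% exact binomial interval 15.9 to 32.0), and the highest was 53.7% at 29°C ZT11 (95% exact binomial interval 43.8 to 63.4). The temperatures overlapped, and exact permutation tests over the columns, two-sided and chosen after the ends were seen, gave p = 0.275 for 18°C against 25°C, 0.160 for 29°C against 25°C and 0.442 for 18°C against 29°C (adjusted over the 3 tests 0.412, 0.412 and 0.442, with 0.0022 the smallest p possible).

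**Figure D3:**
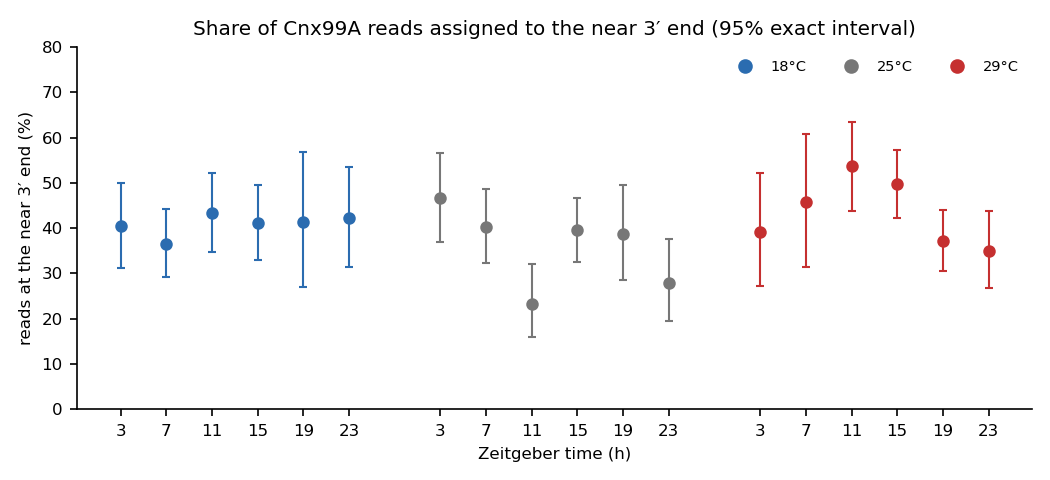
Share of Cnx99A reads at the near of its 2 transcript ends (y axis, percent) in each column, by Zeitgeber time within temperature (18°C blue, 25°C grey, 29°C red), with 95% exact binomial intervals that cover counting error only. The 18 shares run from 23.3% to 53.7% and the temperatures overlap.

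No member passed a test of daily rhythm. Levels in the light and the dark differed by log2 changes between −0.17 for Cnx99A and 0.27 for Ero1L, with unadjusted p-values from 0.24 to 0.88 in limma, while 0.273% of all genes were called and 8.65% had an unadjusted p under 0.05. A 24 h rhythm common to the temperatures gave limma p-values from 0.19 to 0.89 with fitted peak to trough ratios of 1.05 to 1.48, while 0.466% of all genes were called and 8.51% had an unadjusted p under 0.05. A rhythm that differed between temperatures was called in 0.0114% of all genes for 18°C against 25°C, 0.0114% for 29°C against 25°C and 0.0341% for 18°C against 29°C, and 5.34%, 5.54% and 8.35% had an unadjusted p under 0.05. Of the 7 members, 0 had an unadjusted limma p under 0.05 in any of these tests. In edgeR and the other settings of these tests 0 members were called. The JTK test, a rank test against a 24 h cosine with an exact permutation p and a maximum over 1.5 times the minimum, passed 3.05%, 3.29% and 3.28% of genes at 18, 25 and 29°C and 0 members. With 6 values its smallest p is 0.0333, so chance alone gives a p under 0.05 at about that rate. The shares of genes that passed were near it, and 0 members passing does not show that they have no rhythm. With library size scaling 1 member, Calr at 29°C, reached that smallest exact p of 0.0333.

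Over the 18 columns the 7 genes were loosely related. Of their 21 pairs, 15 had a Pearson correlation of log2 values above 0, with a median of 0.26. The highest were ERp60 with Calr (r = 0.65), CaBP1 with ERp60 (r = 0.63) and Gp93 with Xbp1 (r = 0.60). All 6 pairs of Cnx99A, taken by its far end alone, were negative, down to −0.45 with Gp93. The columns share their scaling and depth, so these values are descriptions. Among 6992 other genes with at least 10 reads a column on average, those most like the mean profile of the 7 members over the 18 columns were Vps13B (r = 0.81), RpS3 (r = 0.78), Agpat4 (r = 0.75), Srp54k (r = 0.75), Pgant3 (r = 0.74), GCS1 (r = 0.74), CG3651 (r = 0.73) and RpS29 (r = 0.72).

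The mRNA of crc (CG8669, chromosome 2L, 21310854 to 21319536), which encodes the fly ATF4, was measured too, while its translation was not. It had normalised reads from 718.6 over a median of 795.8 to 869.0 at 18°C. At 25°C they ran from 1034 over a median of 1251 to 1433, and at 29°C from 1800 over a median of 1954 to 2406. The temperatures did not overlap, and each step went up with temperature at all 6 times. It was 1.56-fold lower at 18°C than at 25°C (95% interval 1.38 to 1.76, limma adjusted p = 9.2e-06) and 1.63-fold higher at 29°C than at 25°C (95% interval 1.44 to 1.84, limma adjusted p = 1.9e-06), and both calls held in all 31 alternatives. Edem1, a lectin that passes misfolded glycoproteins on to degradation, had a highest value of 39.96 at 18°C and of 36.7 at 25°C, below its lowest of 41.8 at 29°C. It was 1.84-fold higher at 29°C than at 25°C (95% interval 1.38 to 2.46, limma adjusted p = 0.0031). Hsc70-3, the ER Hsp70 known as BiP and a common marker of the unfolded protein response, had means of 190.4 ± 32.1, 222.9 ± 49.1 and 195.8 ± 30.5 at 18, 25 and 29°C. Its 95% interval at 29°C against 25°C ran from −0.47 to 0.12 on the log2 scale, and it was not called. Whether the unfolded protein response differed between the temperatures was not tested. Of the 8 regulators of the unfolded protein response tested besides Xbp1, 1 was lower at 18°C than at 25°C, crc, and at 29°C 1 was higher than at 25°C, crc, and 1 lower, BI-1, a membrane protein that limits Ire1 signalling. Over all genes, 13.4% and 17.3% were called in these comparisons. BI-1 had 160.5 ± 20.3 at 25°C and 122.4 ± 22.4 at 29°C, with a log2 change of −0.40 (95% interval −0.66 to −0.14, limma adjusted p = 0.0291). This call held in 25 of 31 alternatives, with adjusted p-values up to 0.11 when single columns were left out, the highest for 25°C ZT3.

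**Figure D4:**
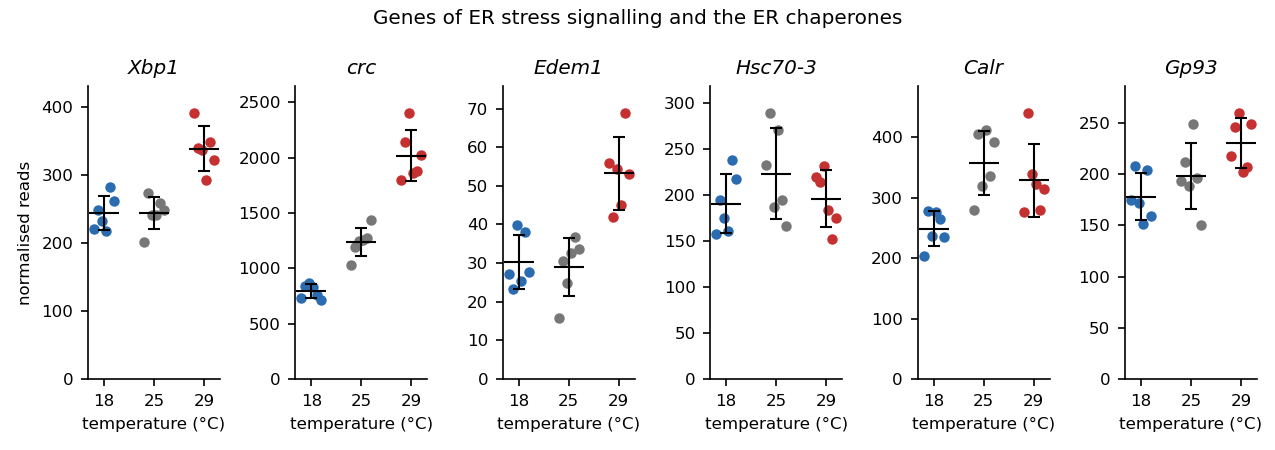
Normalised reads (y axes, from 0) of Xbp1, crc, Edem1, Hsc70-3, Calr and Gp93 by temperature, with 1 point per time point (ordered by ZT from left to right), a bar for the mean and whiskers for the SD of 6 time points. Points of 29°C lie above all others for Xbp1, crc and Edem1, and the temperatures overlap for Hsc70-3.

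Among 22 other ER chaperones and folding enzymes tested, 1 was called higher and 1 lower for 18°C against 25°C, 1 higher for 29°C against 25°C, and 2 higher and 2 lower for 18°C against 29°C. The median log2 changes of −0.02, 0.05 and −0.09 were close to the medians of all genes, −0.01, 0.04 and −0.06. The isomerase relative prtp, which in Drosophila also marks dying cells for engulfment, had its lowest mean at 25°C and its highest at 29°C. Its means were 138.4 ± 36.4, 91.6 ± 15.7 and 171.6 ± 25.8 at 18, 25 and 29°C, a 1.87-fold rise from 25°C to 29°C (95% interval 1.52 to 2.31, limma adjusted p = 9.4e-05). ERp44, whose mammalian counterpart keeps Ero1 in the ER, had 56.4 ± 4.95, 77.5 ± 13.2 and 97.97 ± 12.1, and was lower at 18°C than at 25°C (limma adjusted p = 0.0359) and than at 29°C (limma adjusted p = 0.0001). The call against 25°C held in 22 of 31 alternatives. Without the 3 ZT19 columns, neither prtp nor ERp44 was called for 18°C against 25°C. Of 14 genes of ER-associated degradation, 1 was called higher for 18°C against 25°C, 1 higher and 2 lower for 29°C against 25°C, and 3 higher and 1 lower for 18°C against 29°C. Over all genes, 13.4%, 17.3% and 27.9% were called in these comparisons. Ufd1 was the one called at 18°C against 25°C (1.44-fold, 95% interval 1.19 to 1.73). At 29°C Edem1 was higher and Npl4 lower, and Ubc6 was lower too, but the fly gene of that name is better known as the counterpart of Rad6 in DNA repair.

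The genes of ER entry and N-glycosylation had the largest numbers of calls among the ER lists, but also the most genes tested. Of the 23 tested, 7 were called higher and 1 lower for 18°C against 25°C, 9 higher and 1 lower for 29°C against 25°C, and 3 higher and 5 lower for 18°C against 29°C. In the same comparisons 13.4%, 17.3% and 27.9% of all genes were called. For 18°C against 29°C, 8 of the 23 were called, beside 3 of the 7 members. Their median log2 changes were 0.22, 0.37 and −0.15. With library size scaling the counts were 3 higher and 1 lower, 6 higher and 2 lower, and 4 higher and 3 lower. The list medians against 25°C were then 0.08 and 0.19. That scaling also moved the medians of all genes against 25°C, from −0.01 and 0.04 to −0.14 and −0.13. The gene called lower at 18°C than at 25°C was Srp54 (CG4602), which was also among those lower than at 29°C. In the fly it is a splicing factor and not the particle subunit for which the symbol was listed. The signal peptidase subunit twr had 240.5 ± 23.6, 123.1 ± 31.5 and 181.5 ± 35.1 at 18, 25 and 29°C, and SrpRalpha, a receptor subunit for the signal recognition particle, had 180.1 ± 19.4, 126.96 ± 15.6 and 200.1 ± 22.5, so both were lowest at 25°C. The translocon channel gene Sec61alpha went the other way from crc, with 218.2 ± 17.5, 168.6 ± 25.1 and 110.9 ± 16.2, and was 1.97-fold higher at 18°C than at 29°C (95% interval 1.67 to 2.33, limma adjusted p = 6.9e-07). Dad1, a subunit of the enzyme that transfers sugar chains to new proteins, had 195.3 ± 49.0, 194.3 ± 18.4 and 311.6 ± 48.9.

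For cytosolic folding, of 14 genes of the Hsp70 and Hsp90 systems 4 were lower at 18°C than at 25°C, beside 5.32% of all genes. At 29°C against 25°C 1 was higher and 1 lower, beside 10.6% and 6.69% of all genes. For 18°C against 29°C 1 was higher and 5 lower, beside 13.3% and 14.7%. Hsc70-4, the main Hsp70 of unstressed cells, had 1510 ± 139, 2288 ± 255 and 2429 ± 362 at 18, 25 and 29°C. Of the 8 subunits of the chaperonin CCT, which folds actin and tubulin, 2 were called higher for 18°C against 25°C, CCT1 and CCT8. For 29°C against 25°C 4 were called higher. In these comparisons 8.07% and 10.6% of all genes were called higher. For 18°C against 29°C 1 subunit was higher and 2 were lower. The CCT8 call for 18°C against 25°C (limma adjusted p = 0.0425) held in 14 of 31 alternatives, and in 8 of the 18 that left out a single column. Its limma adjusted p was 0.14 under library size scaling. The highest adjusted p over the alternatives in limma, edgeR or DESeq2 was 0.25. The CCT1 call held in all 31.

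**Figure D5:**
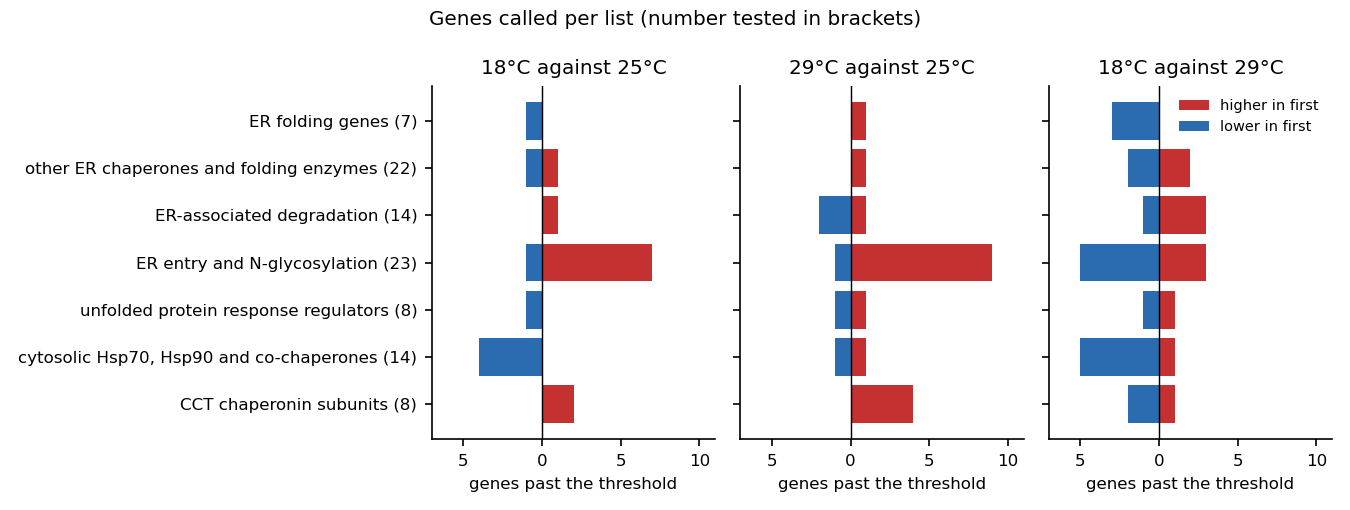
Number of genes past the adjusted threshold (x axis) in each list, to the right if higher and to the left if lower in the temperature named first, with the number tested in brackets. The ER folding genes have 1, 1 and 3 calls, and the genes of ER entry and N-glycosylation have 7 higher and 1 lower for 18°C against 25°C and 9 higher and 1 lower for 29°C against 25°C.

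Markers of head tissues moved with temperature too, and whether fewer cells of a type or less RNA per cell lay behind a lower level cannot be told apart in whole heads. The photoreceptor sum was 30746 to 36503 at 18°C, 36555 to 48346 at 25°C and 40759 to 52205 at 29°C, so that it was lowest where Calr was lowest, and of its 14 genes 1 was called higher and 4 lower for 18°C against 25°C. The fat body sum had medians of 238067, 148495 and 158925 at 18, 25 and 29°C, with 170941 to 254613 at 18°C, 118533 to 276037 at 25°C and 110703 to 190583 at 29°C, and 9 of its 15 genes were called higher for 18°C against 25°C. The glial sum was 1949 to 2416 at 25°C and 1063 to 1280 at 29°C, where Xbp1 was highest, and 4 of its 6 genes were lower at 29°C than at 25°C. The muscle sum was 4817 to 8182 at 25°C and 3025 to 4685 at 29°C, with 3 of 9 genes lower. The part of these tissues in the differences of Calr, Xbp1 and Gp93 was not tested. Without the columns of 29°C ZT19 and 25°C ZT7, the calls of Calr, Xbp1 and Gp93 were the same as with them.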

How the data were processed

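The authors deposited 1 table of normalised read signal for 21081 transcripts in 18 columns, with a column per temperature and time. In each column the deposited signal values were whole multiples of 1 step (100% within 0.001 reads, largest departure 1.7e-05), so reads were recovered by division. How the 2 labelled libraries of a group became 1 column, the use of strand and the counting tool are not given in the sources used here. The submitters' processing notes name Bowtie2, TopHat, Cufflinks and the build dm3, without roles. The table's coordinates were used, counted from 1. The table's ZT19 columns were taken as the group the labels call zt18.

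Each gene took its transcript row with the most reads, and 12914 of 14010 genes had a symbol in the Release 6 RefSeq gene list. The filter (filterByExpr, edgeR 4.0.16, minimum count 10) kept 8791 genes. In R 4.3.3, limma 3.58.1 fitted log2(value + 1) on all 18 columns (lmFit and eBayes, trend on), with temperature and time point as factors. Fold changes are on this scale, which understates changes of low genes. Light against dark and 24 h cosine terms were fitted with temperature as a factor, and JTK was run in Python 3.11.15, leaving out genes with more than 2 zeros. Since the unit was signal, count models (edgeR, DESeq2 1.42.0) on recovered reads were alternatives only. The alternatives were pseudocounts of 0.1 and 5, other filters and scalings, other sets of columns, and leaving out each column. The fits and JTK were also run on simulated reads. The changes put into these were larger than those called in the members, so they do not show how often changes of the members' size are found. Intervals of shares cover counting error only.

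The members' rule uses identifiers only, but the members, the gene lists and the tests were chosen with earlier results of these data known. Named genes outside the members were Hsc70-3, up to 4 with the largest change among those called per list and comparison, and the 8 most like the members' mean profile. Of the pathway lists, 2 symbols had no match. Promoter and protein sequences were not analysed here.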

Additional observations from a re-analysis of the deposited data

Results flagged for a closer look

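Among 126 groups of 6 time points (9 members and 33 other genes named by the rule, at each temperature), 4 had a column far from the other 5 by Dixon's test, where chance gives about 1 in 20, or 6.3. Sec61alpha stood at 142.6 normalised reads at 29°C ZT7. The cytosolic co-chaperone gene Droj2 stood at 390.1 at 25°C ZT19, and CG1416 at 88.2 at 25°C ZT23. The chaperonin subunit CCT7 stood at 98.3 at 29°C ZT11. None of the 4 is a member.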

How the results depend on the processing

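Of the members' values under the alternatives, 822 kept their side of the threshold, 6 lost a call and 1 gained one. Of the 822, 42 changed sign, none of them called in either setting, with reported log2 changes of at most 0.15 in size. The calls lost were Xbp1 for 29°C against 25°C with library size scaling and Gp93 for 18°C against 29°C in 5 settings, and the call gained was Calr for 29°C against 25°C with library size scaling. Of the values of other named genes, 2865 kept their side of the threshold, 54 of them with a change of sign where neither value was called, 155 lost a call and 34 gained one. Library size scaling turned the share of calls that were higher from 60.2% to 34.4% for 18°C against 25°C and from 61.2% to 31.0% for 29°C against 25°C, over all genes. It moved the median of all genes to −0.14 and −0.13 on the log2 scale in these comparisons, and relative to it the Calr change at 18°C was −0.51, beside −0.50 in the deposited scaling. The counts over all genes moved by over 1.5 times in these settings. Without the 3 ZT19 columns, 683 genes were called for 18°C against 25°C in place of 1177. Leaving out both 29°C ZT19 and 25°C ZT7, 929 were called for 29°C against 25°C in place of 1517, 13 for the shared rhythm in place of 41, and 0 for light against dark in limma in place of 24 (733 at an unadjusted p under 0.05). Light against dark also gave 12 with a pseudocount of 0.1, 9 without the filter and 13 in edgeR, and 0 to 27 without single columns, and the shared rhythm 19 to 48. The rhythm differences of 18°C against 25°C, 29°C against 25°C and 18°C against 29°C were called in 1, 1 and 3 genes. Without both columns they gave 0 each in limma (518, 441 and 700 at an unadjusted p under 0.05). In edgeR the first gave 5 and the second 102. The second gave 0 without the filter (722 unadjusted), and 2 with at least 10 reads in every column or with library size scaling. The third gave 9 with at least 10 reads in every column, and 1 with either other pseudocount, without the filter or with library size scaling. Without single columns they gave 1 to 2, 0 to 7 and 0 to 17. With an amplitude over 2, JTK passed 197 genes at 25°C in place of 302 and 194 at 29°C in place of 306, and with library size scaling it passed 1 member at 29°C in place of 0. No paired analysis was possible because the columns carry no replicate numbers. Columns were matched by time point instead, which the temperature fit has as a factor, and without that factor the same members were called.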
